A study of Homo sapiens with 9 samples.

Results

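Knockdown of APT1 in MDA-MB-231 cells was compared with a scrambled control across all genes measured by RNA sequencing. The comparison used 6 of the 9 libraries in the series, 3 labelled shAPT1 and 3 labelled Control. MDA-MB-231 is an established human line from a breast carcinoma that lacks hormone receptors, and both groups grew in DMEM with 10% fetal bovine serum. Control cells carried a lentiviral scrambled shRNA. In shAPT1 cells the lentivirus delivered an shRNA that targets APT1, and selection with puromycin lasted 72 h. The remaining 3 libraries, from cells overexpressing APT1, entered the low-count filter, the scaling and the estimate of spread but no contrast. Nothing in the labels ties the libraries within a group to independent cultures, so the p-values measure only how far these samples spread, and that spread may be technical. A single shRNA sequence and its scrambled partner were compared, so effects of APT1 loss and of that shRNA cannot be told apart.

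APT1, encoded by LYPLA1, is an acyl-protein thioesterase. Palmitate is attached to cysteines of many membrane-bound proteins, among them small GTPases, receptors and adhesion proteins, by DHHC acyltransferases and is removed again by thioesterases, so that such proteins cycle between membranes. The RNA of these libraries reports on transcript levels only, and in bulk RNA fewer cells with a transcript and less transcript per cell cannot be told apart.

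Levels are given in TPM, a share of a library corrected for transcript length. Differences are log2 fold changes of shAPT1 over control ± SE, with adjusted p-values from edgeR's quasi-likelihood test (Benjamini-Hochberg over 15233 tested genes, called at 0.05). Libraries held 12381931 to 17392999 estimated reads in these 2 groups. The line's own markers fitted the label in part: ESR1 and PGR stayed under 1 TPM in all 6 libraries, and VIM stood between 2110 and 2370 TPM. ERBB2 and EPCAM, listed beforehand as low or absent, stood at 27.5 to 35.2 TPM and at 9.47 to 10.9 TPM. Of 12 leukocyte markers, 6 stayed under 1 TPM in all 6 libraries, and CD3E and TYROBP were listed at 0 in each. The summed leukocyte list was 672.9 to 794.3 TPM in control and 389.8 to 409.4 TPM in shAPT1, nearly all of it from CD74, HLA-DRA, CD68, LAPTM5 and LCP1. PTPRC was listed at 0 in the 3 control libraries and in 2 of the 3 shAPT1 libraries, with 0.265 TPM in shAPT1 replicate 3.

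The targeted gene was read first. LYPLA1 (ENSG00000120992, chromosome 8, 54046367 to 54102017, minus strand, GRCh38) stood at 87.1, 92.7 and 80.5 TPM in control and at 38.2, 30.5 and 36.7 TPM in shAPT1. The groups did not overlap, and the log2 fold change was -1.29 ± 0.07 (adjusted p = 2.0e-08). Other enzymes that remove palmitate moved by smaller steps: of 9 tested, 3 rose and 3 fell, LYPLA1 among the latter. Against this, 24.4% of all tested genes were called, 12.8% higher and 11.6% lower. PPT1, the lysosomal palmitoyl-protein thioesterase, stood at 63.2, 69.8 and 71.9 TPM in control and at 97.9, 88.5 and 95.2 TPM in shAPT1 (0.40 ± 0.06, adjusted p = 3.9e-04). LYPLAL1, a relative of LYPLA1, stood at 8.91, 11.2 and 11.3 TPM beside 20.4, 19.4 and 15.7 TPM (0.41 ± 0.12, adjusted p = 0.025). PPT1 and LYPLAL1 were higher in all 3 shAPT1 libraries than in any control library. LYPLAL1 was not called without control replicate 1, 2 or 3 or without shAPT1 replicate 1 (adjusted p = 0.056 to 0.085). ABHD17C also rose (0.35 ± 0.08, adjusted p = 0.0047). ABHD17A (-0.28 ± 0.08, adjusted p = 0.016) and LYPLA2, which encodes APT2 (-0.26 ± 0.09, adjusted p = 0.047), were lower with overlapping TPM ranges. Both calls were weak: LYPLA2 was lost in 14 and ABHD17A in 5 of 17 alternatives, not counting the test against 1.5-fold, and ABHD17C was lost with the transcript length offset (adjusted p = 0.071).

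Across the transcriptome 3719 genes were called, 1951 higher and 1768 lower. With an offset for gene length and GC content the split turned to 1771 higher and 2477 lower of 15189 genes. That fit left out the TMM scaling of the main fit, and its median log2 fold change was -0.033 beside -0.004. Most differences were small, with a median size of 0.43 on the log2 scale among called genes. The large ones were mainly increases: 110 genes rose and 29 fell by at least 4-fold, and 22 rose and 0 fell by at least 16-fold. Protein-coding genes were called higher in 14.6% and lower in 12.6% of cases, and genes without a protein-coding transcript in 3.9% and 6.65%. Among genes of at least 5 TPM in either group, LYPD6B, whose product belongs to the Ly6 family of surface proteins, stood at 1.13, 0.126 and 0.295 TPM in control and at 17.4, 13.8 and 17.5 TPM in shAPT1 (5.34 ± 0.29, adjusted p = 2.7e-08). NPPB, which encodes the B-type natriuretic peptide, stood at 2.41, 1.81 and 2.11 TPM beside 35.5, 27.2 and 30.5 TPM (3.78 ± 0.19, adjusted p = 1.1e-08). PDE1C, a calmodulin-dependent phosphodiesterase gene, rose by 4.12 ± 0.26 (adjusted p = 8.5e-08). Each of these groups was fully separate. C4BPB, which encodes a chain of a complement regulator, went from 21.2, 13 and 12.2 TPM to 140, 104 and 91.1 TPM (2.70 ± 0.19, adjusted p = 3.1e-07). CD55, which encodes a complement inhibitor on the cell surface, rose with it (1.32 ± 0.09, adjusted p = 2.0e-07). The largest losses in TPM among nuclear genes included FTL, HMGA1 and MT2A. HMGA1, which encodes an architectural chromatin protein, stood at 1418, 1337 and 1413 TPM in control and at 690.5, 879.7 and 958 TPM in shAPT1 (-0.82 ± 0.10, adjusted p = 2.9e-05). MT2A, a metallothionein gene, fell by 0.75 ± 0.09 on the log2 scale (adjusted p = 2.7e-05).

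**Figure D1:**
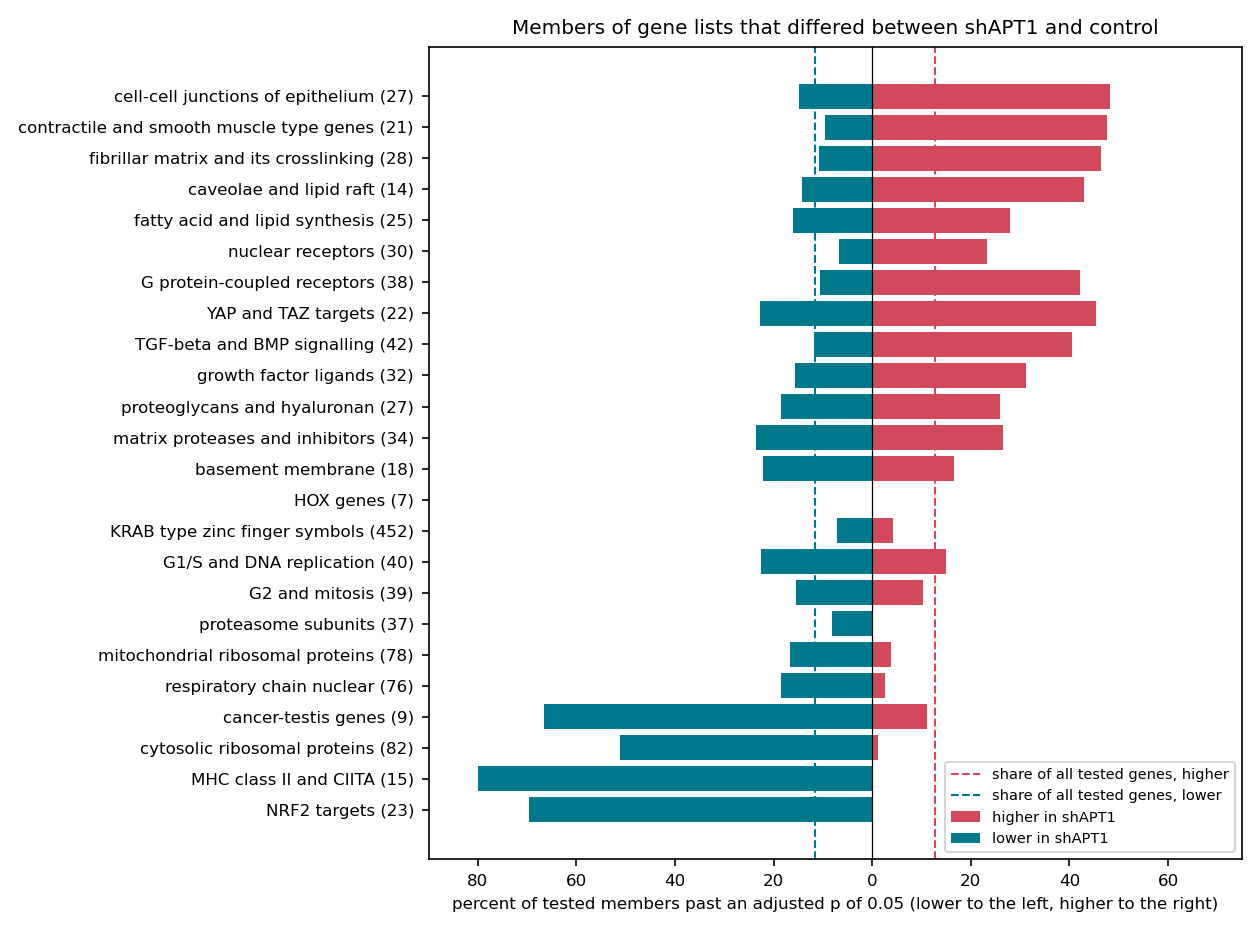
Share of the tested members of each gene list that passed an adjusted p of 0.05, in percent, with genes lower in shAPT1 to the left and genes higher to the right; the number of tested members stands in brackets and dashed lines mark the shares of all tested genes, 11.6% and 12.8%. NRF2 targets and MHC class II genes reach far to the left with no member to the right, and junction, contractile and matrix genes reach far to the right. Cytosolic ribosomal proteins (42 of 82 lower) and cancer-testis genes (6 of 9 lower) also reach far to the left, each with 1 member to the right.

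The sequences shown first belong to 3 gene lists whose members are described next, and each is a stretch before the transcription start taken from RefSeq (GRCh38.p14), chosen because it holds the short element through which the list's factor is known to bind. NRF2 binds antioxidant response elements with small MAF proteins, and the core searched was TGACNNNGC on either strand in 250 bases before to 50 bases after each start. It was present for 4 of 16 NRF2 targets that matched the promoter table, GCLM, ME1, PGD and TXNRD1, and for 19.4% of 10306 tested genes that matched. The core is in capitals in 3 of them, written in the opposite orientation in PGD and GCLM. PGD and TXNRD1 are 2 of the 16 targets that fell, while GCLM was not called.
TXNRD1 (chr12:104215656-104215712, plus strand): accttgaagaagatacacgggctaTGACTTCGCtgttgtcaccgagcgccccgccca
PGD (chr1:10398839-10398895, plus strand): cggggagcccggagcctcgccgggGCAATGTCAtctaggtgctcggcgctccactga
GCLM (chr1:93909432-93909488, minus strand): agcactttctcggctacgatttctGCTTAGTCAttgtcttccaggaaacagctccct

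Promoters of MHC class II genes carry a Y box, bound by the CCAAT factor NF-Y, as the part nearest the start of a conserved module on which CIITA acts. GATTGG on either strand was present for 8 of 13 matched genes of the MHC class II list and for 23.7% of the matched tested genes. The matches are in capitals, and HLA-DMB holds it in the opposite orientation. All 4 genes shown fell.
HLA-DRB1 (chr6:32589866-32589919, minus strand): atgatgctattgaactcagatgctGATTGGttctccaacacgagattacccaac
HLA-DQB1 (chr6:32666717-32666770, minus strand): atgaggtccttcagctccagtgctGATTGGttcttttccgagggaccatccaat
HLA-DMA (chr6:32953148-32953201, minus strand): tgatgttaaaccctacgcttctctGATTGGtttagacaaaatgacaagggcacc
HLA-DMB (chr6:32941029-32941074, minus strand): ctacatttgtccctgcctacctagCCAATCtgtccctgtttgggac

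YAP and TAZ act through TEAD factors, which bind GGAATG. That element was present on either strand for 8 of 15 matched genes of the YAP and TAZ list and for 15.04% of the matched tested genes. It is in capitals below for ANKRD1, which rose. Of the 8 genes, ANKRD1, TGFB2 and LATS2 rose, AXL fell (-0.33 ± 0.06, adjusted p = 0.0020), and AJUBA, AMOTL2, NUAK2 and PTPN14 were not called. A match in any of these windows is a description of the letters and not of binding.
ANKRD1 (chr10:90921186-90921239, minus strand): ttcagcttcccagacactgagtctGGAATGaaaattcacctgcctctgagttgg

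Genes induced by NRF2, the regulator of the response to oxidants and electrophiles, were lower in shAPT1. Of 23 tested targets 0 rose and 16 fell (69.6%), beside 12.8% and 11.6% of all tested genes. The median log2 fold change was -0.46 beside -0.004 over all tested genes. The medians of the list in the 3 shAPT1 libraries against the control mean were -0.48, -0.51 and -0.45, so replicate 1 lay with the others. Without shAPT1 replicate 1, 16 fell as well, with GCLM in place of TKT, while 19 fell with the offset for gene length and GC content, and 13 with the transcript length offset. Over all genes 1768 fell in the main fit, 2477 with the offset for gene length and GC content and 1111 with the transcript length offset. At an unadjusted p of 0.05, 0 targets rose in edgeR, and DESeq2 and limma-voom also called 0 higher and 16 lower. After the median change of up to 50 neighbouring genes on each side was subtracted, the list's median was -0.48.

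The transaldolase gene TALDO1, of the pentose phosphate pathway that supplies NADPH, had the largest decrease in the list. It stood at 315.6, 307.5 and 305.2 TPM in control and at 88.8, 119.1 and 125.1 TPM in shAPT1 (-1.68 ± 0.10, adjusted p = 3.9e-08), with no overlap. PGD, which encodes an NADPH-producing dehydrogenase of the same pathway, stood at 125.1, 135.0 and 129.5 TPM beside 90.9, 95.0 and 106 TPM (-0.48 ± 0.07, adjusted p = 1.8e-04). TKT, the transketolase gene, was also called lower (-0.26 ± 0.08, adjusted p = 0.035), with overlapping groups, and was lost in 9 of 17 alternatives.

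The aldo-keto reductase genes followed. AKR1C3 stood at 20.4, 13.8 and 15 TPM in control and at 5.56, 4.95 and 5.56 TPM in shAPT1 (-1.65 ± 0.21, adjusted p = 5.3e-05), and AKR1C1 fell by 1.59 ± 0.42 (adjusted p = 0.014). These are close relatives on chromosome 10 whose reads can be split between copies, and AKR1C1 was not called with the transcript length offset (adjusted p = 0.069), without control replicate 1 (adjusted p = 0.064) or without shAPT1 replicate 2 (adjusted p = 0.053). AKR1B1 fell by 0.38 ± 0.08 (adjusted p = 0.0020). NQO1, a quinone reductase gene and a standard readout of NRF2, stood at 421, 418 and 384 TPM in control and at 255, 269 and 289 TPM in shAPT1 (-0.61 ± 0.09, adjusted p = 3.3e-04), fully separate.

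Genes of the thioredoxin and glutathione systems were lower in part. TXNRD1, thioredoxin reductase, stood at 427, 462 and 465 TPM in control and at 342, 303 and 335 TPM in shAPT1 (-0.54 ± 0.08, adjusted p = 1.6e-04). TXN itself (-0.25 ± 0.07, adjusted p = 0.015), the sulfiredoxin gene SRXN1 (-0.43 ± 0.09, adjusted p = 0.0035) and the glutathione reductase gene GSR (-0.46 ± 0.08, adjusted p = 5.3e-04) also fell. TXN was not called without control replicate 1 (adjusted p = 0.063). The subunits of the rate-limiting enzyme of glutathione synthesis were not called, with GCLC at -0.08 ± 0.08 (adjusted p = 0.51) and GCLM at -0.19 ± 0.12 (adjusted p = 0.28). GCLM stood at 82.3 TPM in shAPT1 replicate 1, above each control library, and at 53.2 and 61.3 TPM in replicates 2 and 3, below each. Without replicate 1 it was called at -0.33 (adjusted p = 0.021). The cystine transporter gene SLC7A11 had separate groups, 34.3, 31.7 and 34.7 TPM beside 24.1, 20.2 and 26.7 TPM, and did not pass (-0.58 ± 0.23, adjusted p = 0.078).

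Both ferritin chains, which store iron, were lower. FTL stood at 4460, 3516 and 3708 TPM in control and at 2402, 2443 and 2799 TPM in shAPT1 (-0.69 ± 0.14, adjusted p = 0.0023). FTH1 fell by 0.33 ± 0.09 (adjusted p = 0.013), a call lost without control replicate 1 (adjusted p = 0.063). OSGIN1, named for its induction by oxidant stress, fell by 1.04 ± 0.17 (adjusted p = 5.6e-04), and the export pump gene ABCC3 by 0.81 ± 0.16 (adjusted p = 0.0019). The heme oxygenase gene HMOX1 (-0.34 ± 0.14, adjusted p = 0.10), PRDX1 (0.04 ± 0.07, adjusted p = 0.69) and ME1 (-0.03 ± 0.09, adjusted p = 0.84) were not called.

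The MHC class II genes, which present peptides to helper T cells and which some carcinoma lines express, were lower together with their regulator. Of 15 tested genes 0 rose and 12 fell (80%), with a median of -1.27, beside 12.8% higher and 11.6% lower of all tested genes. DESeq2 and limma-voom gave the same counts, and at an unadjusted p of 0.05 in edgeR 0 rose. Of the 6 tested leukocyte markers, 4 fell: HLA-DRA and CD74 of this list, LAPTM5 (-1.18 ± 0.11) from 40.6 to 47.0 TPM in control to 16.5 to 22.9 TPM, and CD68 (-0.62 ± 0.12) from 104 to 131 TPM to 67.4 to 87.4 TPM. LCP1 rose (1.94 ± 0.09), CD14 was not called, and PTPRC, CD3E and TYROBP were at or near 0 as given above. The part of other cells in the class II result was not tested. CIITA, the coactivator on which class II transcription depends, stood at 10.8, 15.8 and 11.6 TPM in control and at 3.51, 3.40 and 3.70 TPM in shAPT1 (-1.81 ± 0.11, adjusted p = 6.2e-08). HLA-DRA, the invariant alpha chain of HLA-DR, stood at 134.7, 168.6 and 162.2 TPM beside 57.9, 48.2 and 50.1 TPM (-1.65 ± 0.09, adjusted p = 3.5e-08). The control and shAPT1 values of both genes lay far apart, and the 3 shAPT1 libraries differed little among themselves.

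HLA-DRB1 stood at 62.3, 80.8 and 75.1 TPM in control and at 25.3, 24.4 and 26.8 TPM in shAPT1 (-1.57 ± 0.11, adjusted p = 3.1e-07), although reads of HLA-DRB1 and HLA-DRB5 can be split between near-identical genes. HLA-DPA1 (-1.27 ± 0.12), HLA-DPB1 (-1.30 ± 0.16) and HLA-DQB1 (-1.09 ± 0.27) fell as well; HLA-DQB1 was not called without control replicate 2 (adjusted p = 0.052). HLA-DMA (-0.98 ± 0.13) and HLA-DMB (-1.36 ± 0.14), whose products load peptide, and CD74, the invariant chain (-1.11 ± 0.10), completed the pathway. HLA-DQA1 stayed below 1 TPM in all 6 libraries and was not called. Of the 3 subunits of the RFX complex that binds class II promoters, RFX5 was at -0.25 ± 0.08 (adjusted p = 0.043), a call lost in 9 of 17 alternatives, while RFXAP (-0.16 ± 0.15) and RFXANK (-0.07 ± 0.11) were not called. In contrast, 1 of 21 tested genes of MHC class I presentation rose (4.76%) and 4 fell (19.05%), with a median of -0.0025. Over all tested genes these shares were 12.8% and 11.6%.

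**Figure D2:**
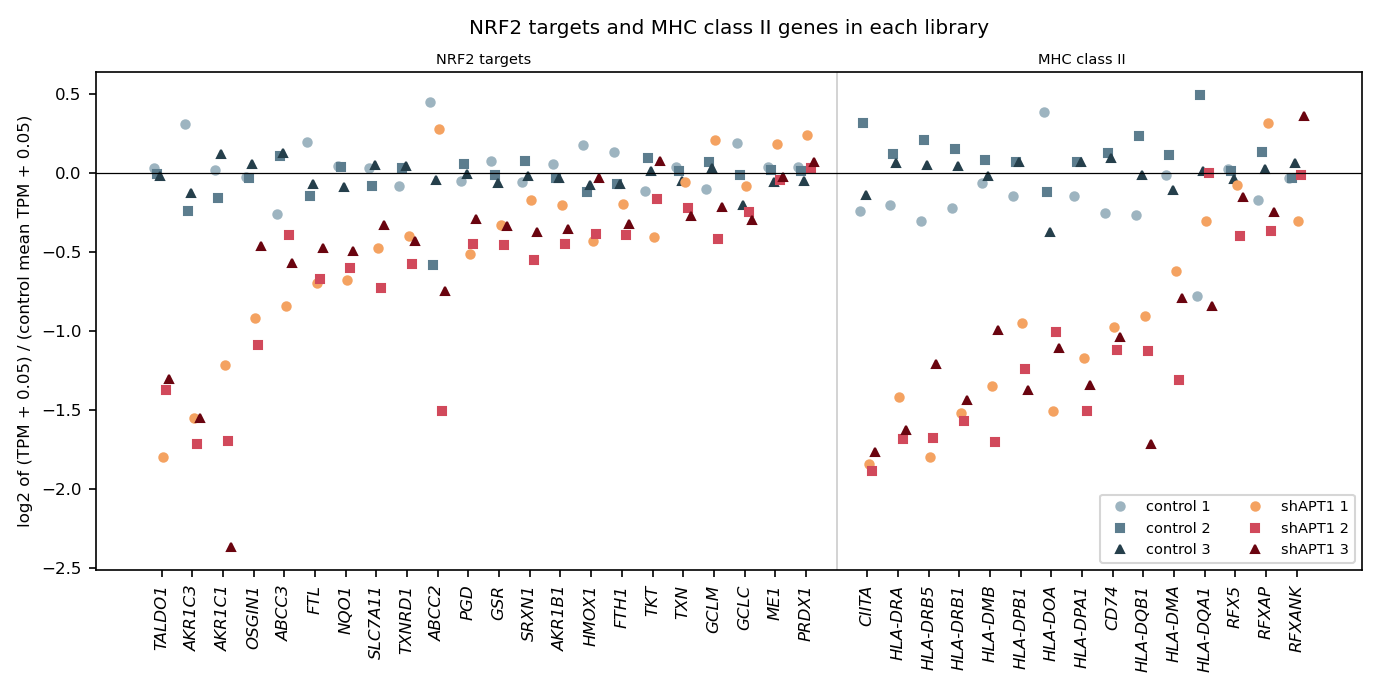
TPM of 22 tested NRF2 targets and the 15 tested MHC class II genes in each of the 6 libraries, as the log2 ratio to the mean of the 3 control libraries after adding 0.05 TPM; genes are ordered by fold change within each list. From TALDO1 to NQO1 and from CIITA to HLA-DMA the shAPT1 points lie below the control points, while TKT, GCLM, RFXAP and RFXANK overlap.

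Matrix genes that build fibrils and their crosslinks were more often higher. Of 28 tested, 13 rose (46.4%) and 3 fell (10.7%), with a median of 0.18, beside 12.8% and 11.6% of all tested genes. Of 9 fibroblast markers, 5 stayed under 1 TPM in all 6 libraries, among them COL3A1, LUM, DCN and PDGFRA, and the list's sum was 17.95 to 20.94 TPM in control and 13.31 to 23.27 TPM in shAPT1. Of its 4 tested members, COL1A1 (0.51 ± 0.13), COL1A2 (1.69 ± 0.35) and PDGFRB (1.39 ± 0.21) rose and FBLN1 fell. All but PDGFRB are also in the matrix list, and with the transcript length offset 1 was called each way. PDGFRB stood at 2.96, 2.2 and 3.2 TPM in control and at 2.87, 8.67 and 4.97 TPM in shAPT1, so replicate 1 lay within the control range. Its call was lost with the transcript length offset and with the deposited table (adjusted p = 0.078 to 0.088). The part of fibroblast markers in the matrix result was not tested. THBS2, which encodes thrombospondin 2, a matrix protein that binds growth factors and proteases, stood at 0.304, 0.136 and 0.367 TPM in control and at 3.60, 4.22 and 4.17 TPM in shAPT1 (4.17 ± 0.23, adjusted p = 3.1e-08). Its abundant relative THBS1 stood at 303.8, 463.4 and 408.8 TPM beside 1101, 1010 and 1009 TPM (1.38 ± 0.10, adjusted p = 2.1e-07). Fibronectin, from FN1, stood at 29.9, 44.8 and 41.0 TPM beside 116, 80.5 and 87.8 TPM (1.18 ± 0.14, adjusted p = 3.1e-05). For each of these 3 genes every shAPT1 library was above every control library.

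The lysyl oxidase gene LOX, which crosslinks collagen, rose by 1.17 ± 0.11 (adjusted p = 5.9e-06), the fibrillin gene FBN1 by 1.17 ± 0.08 (adjusted p = 3.2e-07), the versican gene VCAN by 1.82 ± 0.30 (adjusted p = 6.0e-04) and COL12A1 by 0.82 ± 0.08 (adjusted p = 6.9e-06). Outside this list, EDIL3, EFEMP1, MATN2 and COL8A1, all genes of secreted matrix proteins, were among the 12 largest increases at 50 TPM or more. EDIL3 stood at 6.87, 13.8 and 9.30 TPM in control and at 57.0, 44.9 and 50.5 TPM in shAPT1 (2.39 ± 0.14, adjusted p = 3.4e-08). FBLN1, which encodes fibulin 1, moved the other way, with 11.4, 10.2 and 11.3 TPM in control and 2.08, 5.11 and 6.12 TPM in shAPT1 (-1.14 ± 0.15, adjusted p = 9.9e-05). Tenascin C, from TNC, fell by 0.97 ± 0.08 (adjusted p = 1.4e-06) and PLOD3 by 0.47 ± 0.08 (adjusted p = 8.7e-04). Relative to its neighbours on chromosome 7, PLOD3 was at -0.18.

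Basement membrane genes moved in both directions. Of 18 tested, 3 rose (16.7%) and 4 fell (22.2%), beside 12.8% and 11.6% of all tested genes. Their median was -0.11, and with the offset for gene length and GC content 3 rose and 3 fell. COL4A1 stood at 15.7, 20.1 and 20.1 TPM in control and at 46.6, 38.4 and 43.3 TPM in shAPT1 (1.101 ± 0.11, adjusted p = 8.7e-06), and its partner chain COL4A2 rose by 0.56 ± 0.08 (adjusted p = 2.2e-04). These genes share a promoter region on chromosome 13 and stood at 0.88 and 0.34 relative to their neighbours. The laminin beta chains LAMB1 (-0.53 ± 0.08, adjusted p = 3.3e-04) and LAMB3 (-0.38 ± 0.07, adjusted p = 0.0015) fell, as did agrin, from AGRN (-0.62 ± 0.08, adjusted p = 7.8e-05). LAMB1 lies in a stretch of chromosome 7 where 34 of 111 tested genes fell and 1 rose (median -0.27). LAMC1, the third gene called higher, was not called with the transcript length offset.

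Cell surface proteoglycans moved in both directions. SDC2, a syndecan, stood at 10.6, 11.5 and 12.2 TPM in control and at 51.3, 55.6 and 54.9 TPM in shAPT1 (2.12 ± 0.11, adjusted p = 1.1e-08). SDC4, the paralog at focal adhesions, stood at 172, 192 and 200 TPM beside 134, 86.6 and 87.8 TPM (-0.95 ± 0.14, adjusted p = 1.7e-04), and replicate 1 was the highest of the shAPT1 libraries. SDC4 stayed above SDC2 in all 6 libraries. Of 27 tested genes of proteoglycans and hyaluronan 7 rose (25.9%) and 5 fell (18.5%), beside 12.8% and 11.6% of all tested genes. The hyaluronan synthase gene HAS2 (1.44 ± 0.12, adjusted p = 1.9e-06) and CEMIP, whose product takes part in hyaluronan breakdown (2.66 ± 0.19, adjusted p = 3.0e-07), both rose.

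Proteases and their inhibitors moved in both directions, with 9 of 34 higher (26.5%) and 8 lower (23.5%), beside 12.8% and 11.6% of all tested genes. TIMP3, an inhibitor that stays bound to matrix, stood at 23.2, 28.8 and 24.9 TPM in control and at 68.2, 96.2 and 90.2 TPM in shAPT1 (1.67 ± 0.15, adjusted p = 2.0e-06), while its soluble paralog TIMP1 fell by 0.43 ± 0.10 (adjusted p = 0.0067; -0.17 relative to its neighbours on X). The urokinase gene PLAU fell by 0.80 ± 0.09 (adjusted p = 1.5e-05) and the membrane protease gene MMP14 by 0.69 ± 0.07 (adjusted p = 1.5e-05). ADAM10, a sheddase gene, rose by 0.50 ± 0.07 (adjusted p = 1.6e-04).

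Genes in the list of epithelial junctions, which also holds a mesenchymal cadherin gene, were more often higher. Of 27 tested, 13 rose (48.15%) and 4 fell (14.8%), with a median of 0.24, beside 12.8% and 11.6% of all tested genes. With the transcript length offset 9 rose and 4 fell. In that fit 1196 of all 15233 genes rose and 1111 fell, beside 1951 and 1768 in the main fit. CDH11, a cadherin of mesenchymal cells, stood at 9.74, 10.4 and 9.56 TPM in control and at 41.0, 39.0 and 49.8 TPM in shAPT1 (2.17 ± 0.08, adjusted p = 1.1e-09). DSP, the desmoplakin that anchors keratin at desmosomes, stood at 6.63, 7.67 and 7.40 TPM beside 19.2, 16.3 and 18.2 TPM (1.27 ± 0.07, adjusted p = 3.5e-08). Occludin, from OCLN, stood at 6.43, 8.53 and 7.56 TPM beside 15.8, 16.2 and 18.5 TPM (0.94 ± 0.09, adjusted p = 5.5e-06). All 3 were fully separate between groups.

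The tight junction genes CGN (1.89 ± 0.14, adjusted p = 4.2e-07), F11R (1.18 ± 0.15, adjusted p = 5.2e-05) and TJP1 (0.44 ± 0.05, adjusted p = 4.9e-05) rose too. PLEKHA7, a gene of the zonula adherens outside the list, stood at 5.71, 3.24 and 2.99 TPM in control and at 22.1, 26.2 and 24.1 TPM in shAPT1 (2.61 ± 0.12, adjusted p = 7.2e-09). The claudin gene CLDN4 fell, from 62.4, 64.0 and 67.5 TPM to 32.9, 35.6 and 45.4 TPM (-0.84 ± 0.11, adjusted p = 6.7e-05), as did NECTIN1 (-0.82 ± 0.11, adjusted p = 1.4e-04) and the desmoglein gene DSG2 (-0.33 ± 0.07, adjusted p = 0.0034). CDH1, which encodes E-cadherin, was at 0.555, 1.39 and 0.383 TPM in control and at 0.647, 1.29 and 0.434 TPM in shAPT1. Its call on summed reads (1.04 ± 0.34, adjusted p = 0.038) was lost in 11 of 17 alternatives, among them the transcript length offset (0.13, adjusted p = 0.93). Of 9 keratin genes 3 rose, KRT7, KRT8 and KRT18, by 0.37 to 0.64, and KRT15 fell by 1.04 ± 0.20, a call lost with the transcript length offset.

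Contractile genes of the smooth muscle type rose in 10 of 21 cases (47.6%) and fell in 2 (9.52%), with a median of 0.30. Over all tested genes these shares were 12.8% and 11.6%. TAGLN, which encodes the actin-binding protein transgelin, stood at 21.0, 25.3 and 23.9 TPM in control and at 85.5, 62.8 and 70.8 TPM in shAPT1 (1.51 ± 0.10, adjusted p = 9.0e-08). Tropomyosin 1, from TPM1, stood at 115, 108 and 109 TPM beside 216, 204 and 201 TPM (0.76 ± 0.07, adjusted p = 3.0e-06). Nonmuscle myosin IIB, from MYH10, rose by 0.82 ± 0.06 (adjusted p = 4.2e-07) and caldesmon, from CALD1, by 0.60 ± 0.06 (adjusted p = 9.3e-06). SMTN (-0.52 ± 0.07, adjusted p = 1.6e-04) and FHL1 (-0.49 ± 0.10, adjusted p = 0.0037) fell. The list's median was -0.07 in shAPT1 replicate 1 and 0.29 and 0.38 in replicates 2 and 3, and its members had a median GC content of 56.7% beside 49.4% for all tested genes. Without replicate 1, 13 rose and 2 fell.

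Caveolae are membrane pits rich in cholesterol and palmitoylated caveolin. Of 14 tested genes of caveolae and lipid rafts 6 rose (42.9%) and 2 fell (14.3%), beside 12.8% and 11.6% of all tested genes. SDPR, which encodes cavin-2, stood at 10.3, 9.54 and 10.3 TPM in control and at 32.4, 37.2 and 36.3 TPM in shAPT1 (1.74 ± 0.09, adjusted p = 1.1e-08). CAV2 stood at 89.5, 106 and 98.3 TPM beside 178, 173 and 175 TPM (0.80 ± 0.08, adjusted p = 6.4e-06), and CAV1 rose by 0.37 ± 0.07 (adjusted p = 0.0021). The flotillin gene FLOT1 rose (0.41 ± 0.10, adjusted p = 0.0068). EHD1 (-0.58 ± 0.08, adjusted p = 1.2e-04) and EHD4 (-0.47 ± 0.06, adjusted p = 1.2e-04), ATPases of membrane remodelling, fell.

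**Figure D3:**
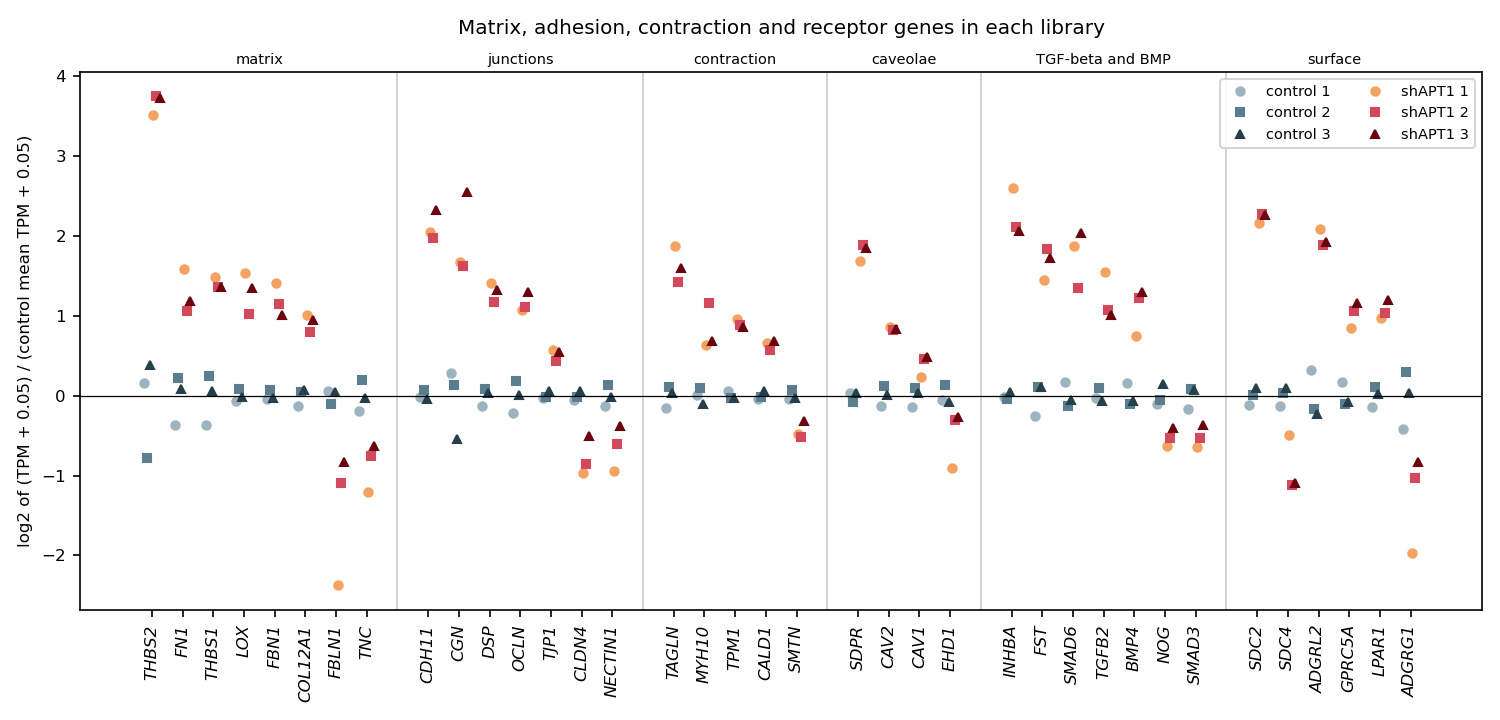
TPM in each of the 6 libraries for selected matrix, junction, contractile, caveolar, TGF-beta and surface genes, as the log2 ratio to the mean of the 3 control libraries after adding 0.05 TPM. For each gene shown every shAPT1 point lies on one side of the control points, above for genes such as THBS2, CDH11, SDPR and INHBA and below for FBLN1, CLDN4, SMTN, EHD1 and ADGRG1, and shAPT1 replicate 1 stands apart for FBLN1, SDC4 and ADGRG1.

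Ligands and inhibitors of the TGF-beta superfamily were among the genes that rose. Of 42 tested members 17 rose (40.5%) and 5 fell (11.9%), beside 12.8% and 11.6% of all tested genes. INHBA, which encodes the activin A subunit, stood at 3.25, 3.20 and 3.40 TPM in control and at 20.1, 14.3 and 13.8 TPM in shAPT1 (2.25 ± 0.18, adjusted p = 7.5e-07), and INHBB rose by 1.69 ± 0.37 (adjusted p = 0.0040) at under 1 TPM. Follistatin, from FST, which binds and blocks activin, stood at 11.3, 14.5 and 14.5 TPM beside 36.8, 47.9 and 44.5 TPM (1.76 ± 0.14, adjusted p = 6.6e-07). The ligand genes TGFB2 (1.14 ± 0.10, adjusted p = 2.0e-06) and BMP4 (1.08 ± 0.14, adjusted p = 5.8e-05) rose, while noggin, from NOG, a BMP antagonist, fell by 0.58 ± 0.09 (adjusted p = 3.1e-04).

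Among receptors and transducers, BMPR1B rose by 0.97 ± 0.21 (adjusted p = 0.0037) and the inhibitory SMAD6 by 1.35 ± 0.17 (adjusted p = 5.2e-05). SMAD3 fell, from 69.4, 82.8 and 82.2 TPM to 50, 54.2 and 60.6 TPM (-0.43 ± 0.07, adjusted p = 3.6e-04). SMAD2 (0.43 ± 0.07, adjusted p = 3.5e-04) and SMAD4 (0.46 ± 0.07, adjusted p = 4.3e-04) rose, and both lie on chromosome 18, where they stood at 0.11 and 0.10 relative to their neighbours. SMAD4 was not called with the transcript length offset (adjusted p = 0.068). ID1, a direct BMP target, fell by 0.44 ± 0.10 (adjusted p = 0.0069) with overlapping groups, and ID4 went from at most 0.167 TPM in control to 0.833 to 1.12 TPM. Without shAPT1 replicate 1, 13 members rose and 5 fell.

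G protein-coupled receptor genes rose in 16 of 38 cases (42.1%) and fell in 4 (10.5%), beside 12.8% and 11.6% of all tested genes. The muscarinic receptor gene CHRM3 stood at 0.024, 0.027 and 0.043 TPM in control and at 2.06, 2.26 and 3.62 TPM in shAPT1 (4.83 ± 0.40, adjusted p = 1.2e-06). LPAR1, a receptor for lysophosphatidic acid, stood at 21.6, 25.9 and 24.4 TPM beside 47.1, 49.1 and 55.0 TPM (1.00 ± 0.06, adjusted p = 8.5e-08). GPRC5A stood at 106, 87.8 and 88.7 TPM beside 169, 196 and 210 TPM (1.17 ± 0.07, adjusted p = 7.6e-08), and its paralog GPRC5B rose with it (2.45 ± 0.22, adjusted p = 3.0e-06). The adhesion receptor genes ADGRL2 (2.14 ± 0.17, adjusted p = 8.9e-07) and ADGRG1 moved in opposite directions. ADGRG1 stood at 33.7, 55.1 and 45.8 TPM in control and at 11.5, 21.9 and 25.2 TPM in shAPT1 (-1.31 ± 0.18, adjusted p = 1.2e-04).

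Secreted growth factor genes rose in 10 of 32 cases (31.25%) and fell in 5 (15.6%), beside 12.8% and 11.6% of all tested genes. Neuregulin 1, from NRG1, a ligand of ERBB3 and ERBB4, stood at 54.3, 63.9 and 61.0 TPM in control and at 153, 142 and 131 TPM in shAPT1 (0.99 ± 0.08, adjusted p = 7.3e-07). The EGFR ligand gene AREG rose by 1.13 ± 0.11 (adjusted p = 4.9e-06). The neurotrophin gene BDNF rose (0.91 ± 0.09, adjusted p = 4.0e-06). Stanniocalcin 1, from STC1, stood at 46.6, 54.2 and 52.4 TPM beside 21.6, 16.8 and 15.7 TPM (-1.55 ± 0.09, adjusted p = 4.7e-08). STC1, ANGPTL4 (-1.81 ± 0.32, adjusted p = 0.0010) and VEGFA (-0.57 ± 0.07, adjusted p = 5.6e-05) are known hypoxia-responsive genes. Of 36 tested genes of glycolysis and hypoxia 3 rose (8.33%) and 6 fell (16.7%), with a median of -0.04. A response to hypoxia was not tested.

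YAP and TAZ targets rose in 10 of 22 cases (45.5%) and fell in 5 (22.7%), beside 12.8% and 11.6% of all tested genes. ANKRD1 stood at 281, 248 and 266 TPM in control and at 601, 521 and 500 TPM in shAPT1 (0.96 ± 0.12, adjusted p = 6.4e-05). LATS2, a kinase gene that feeds back on the pathway, rose by 0.62 ± 0.07 (adjusted p = 1.3e-05), but it lies on chromosome 13 and stood at 0.19 relative to its neighbours. NT5E, which encodes the ecto-nucleotidase CD73, moved against the list, from 398, 447 and 418 TPM to 269, 291 and 282 TPM (-0.68 ± 0.06, adjusted p = 3.0e-06). Of 32 feedback and immediate early genes of the MAPK pathway 6 rose (18.8%) and 8 fell (25%), with a median of 0.03. DUSP6 (0.71 ± 0.07, adjusted p = 9.2e-06), SPRY1 (1.03 ± 0.16, adjusted p = 2.8e-04) and EGR1 (1.06 ± 0.16, adjusted p = 3.2e-04) rose, and FOSL1 (-0.64 ± 0.07, adjusted p = 1.3e-05) and IER3 (-0.81 ± 0.09, adjusted p = 2.6e-05) fell.

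Among lipid genes, SCD, the desaturase that makes monounsaturated fatty acids, had the largest change. Of 25 tested genes of fatty acid and lipid synthesis 7 rose (28%) and 4 fell (16%), beside 12.8% and 11.6% of all tested genes. SCD rose by 1.87 ± 0.23 (adjusted p = 5.4e-05). FADS1 (0.44 ± 0.06), ACSL3 (0.59 ± 0.08) and ELOVL7 (0.87 ± 0.15) rose with it, while AGPAT2 fell (-0.66 ± 0.10). Cholesterol synthesis genes rose in 7 and fell in 4 of 27 cases, but 2 rose and 4 fell with the transcript length offset, and their median was -0.004 with the offset for gene length and GC content. For fatty acid and lipid synthesis the transcript length offset gave 4 higher and 4 lower. Over all 15233 genes it gave 1196 higher and 1111 lower, beside 1951 and 1768 in the main fit. The nuclear receptor genes RARB (adjusted p = 7.2e-04) and NR2F1 (2.34 ± 0.17, adjusted p = 4.1e-07) rose from low levels, and of 30 nuclear receptors 7 rose (23.3%) and 2 fell (6.67%). PHGDH, the first enzyme of serine synthesis, rose by 1.14 ± 0.26 (adjusted p = 0.0053), and its libraries were unlike, as described below for replicate 1.

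Of 40 genes of G1/S and DNA replication 6 rose and 9 fell, with RFC3 at 0.70 ± 0.09 and E2F2 at -0.68 ± 0.13, and of 39 genes of G2 and mitosis 4 rose and 6 fell, with DLGAP5 at 0.34 ± 0.06 and PLK1 at -0.48 ± 0.07. The shares were 15% and 22.5% for the first list and 10.3% and 15.4% for the second, beside 12.8% and 11.6% of all tested genes. With the offset for gene length and GC content, 2 rose and 14 fell in the first and 3 rose and 10 fell in the second. In that fit 1771 of all 15189 genes rose and 2477 fell. CDKN1A, which encodes the cyclin-dependent kinase inhibitor p21, fell by 1.02 ± 0.13 (adjusted p = 7.0e-05). Among BCL2 family genes, BIK fell by 1.93 ± 0.33 (adjusted p = 6.9e-04) and PMAIP1, which encodes NOXA, rose by 0.82 ± 0.09 (adjusted p = 1.8e-05). PMAIP1 lies in a stretch of chromosome 18 where 26 of 32 tested genes rose (median 0.47). RFC3 and DLGAP5, given above, lie in stretches of chromosomes 13 and 14 where 23 of 34 and 28 of 64 genes rose. Of 59 tested RAB genes and partners 14 rose and 5 fell, but 11 rose and 11 fell with the offset for gene length and GC content, 6 and 4 with the transcript length offset, and 13 and 8 without shAPT1 replicate 1. Over all genes the transcript length offset gave 1196 higher and 1111 lower, beside 1951 and 1768 in the main fit. RAB34, a GTPase of the Golgi and cilium, stood at 150, 173 and 152 TPM in control and at 70.9, 74.3 and 74.2 TPM in shAPT1 (-1.30 ± 0.07, adjusted p = 3.5e-08). Of 9 cancer-testis genes, 8 of them on X, 1 rose and 6 fell, with MAGEC1 (4.02 ± 0.33, adjusted p = 1.3e-06) and its paralog MAGEC2 (-1.27 ± 0.27, adjusted p = 0.0033) on opposite sides; reads of MAGEA3, XAGE1A and XAGE1B may be shared with near-identical copies. Of 452 tested zinc finger genes with KRAB type symbols 19 rose and 32 fell, both below the share of all genes. With the offset for gene length and GC content 19 rose and 65 fell, where 2477 of all 15189 genes fell.

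Among genes without a protein-coding transcript, LINC01929 on chromosome 18 was listed at 0 in the 3 control libraries and stood at 0.863, 1.57 and 1.49 TPM in shAPT1. PLCE1-AS1 stood at 0, 0 and 0.076 TPM beside 1.09, 1.78 and 1.57 TPM, and its reads cannot be told apart from its antisense partner unless the counting used strand. MIR3142HG, host of the microRNA miR-146a, stood at 28.1, 30.5 and 40.2 TPM in control and at 12.4, 2.94 and 3.56 TPM in shAPT1 (-2.55 ± 0.32, adjusted p = 6.0e-05). Its level in replicate 1 lay between the control libraries and the other shAPT1 libraries. LINC00880 fell by 2.24 ± 0.25 (adjusted p = 2.1e-05).

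Genes of some chromosomes moved together. On chromosome 13, 140 of 271 tested genes rose, or 51.7%, and 4 fell, with a median log2 fold change of 0.30. On chromosome 18, 87 of 229 rose, or 38.0%, and 9 fell, with a median of 0.23. Over all tested genes the shares were 12.8% and 11.6% and the median was -0.004. The 3 shAPT1 libraries agreed in direction: the median of chromosome 13 genes against the control mean was 0.36, 0.29 and 0.23, and that of chromosome 18 genes was 0.24, 0.21 and 0.17. Each control library against the other 2 stayed between -0.02 and 0.03 for these chromosomes. With the offset for gene length and GC content the medians were 0.21 for chromosome 13 and 0.17 for chromosome 18.

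The shift was not even along a chromosome. In windows of 10 Mb with at least 20 tested genes, chosen after the data were seen, 23 of 259 windows had a median above 0.2 and 8 below -0.2. On chromosome 18, in the window from 50000001 to 60000000, 26 of 32 genes rose and 0 fell, with a median of 0.47. On chromosome 13, from 20000001 to 30000000, 31 of 42 rose and 1 fell (median 0.42), and from 30000001 to 40000000, 23 of 34 rose and 0 fell (median 0.44). On chromosome 14, from 30000001 to 40000000, 24 of 40 rose and 1 fell (median 0.41), while the whole chromosome had 24.6% of its genes higher.

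Other stretches were lower. On chromosome 9, from 130000001 to 140000000, 62 of 118 genes fell and 3 rose, with a median of -0.33; that window has a median GC content of 61.3%, and its median was -0.26 with the offset for gene length and GC content. On chromosome 7, from 100000001 to 110000000, 34 of 111 fell and 1 rose (median -0.27; -0.26 with that offset). Chromosome 7 as a whole had 21.6% of its genes lower and 5.95% higher, and X had 22.0% lower and 8.96% higher. Genes named above from these stretches therefore share part of their change with their neighbours. DNA copy number of the 2 groups of cells was not analysed here, so these fold changes are of RNA per library and not per gene copy. LYPLA1 on chromosome 8 stood at -1.32 relative to its neighbours, TALDO1 at -1.62 and CIITA at -1.77.

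**Figure D4:**
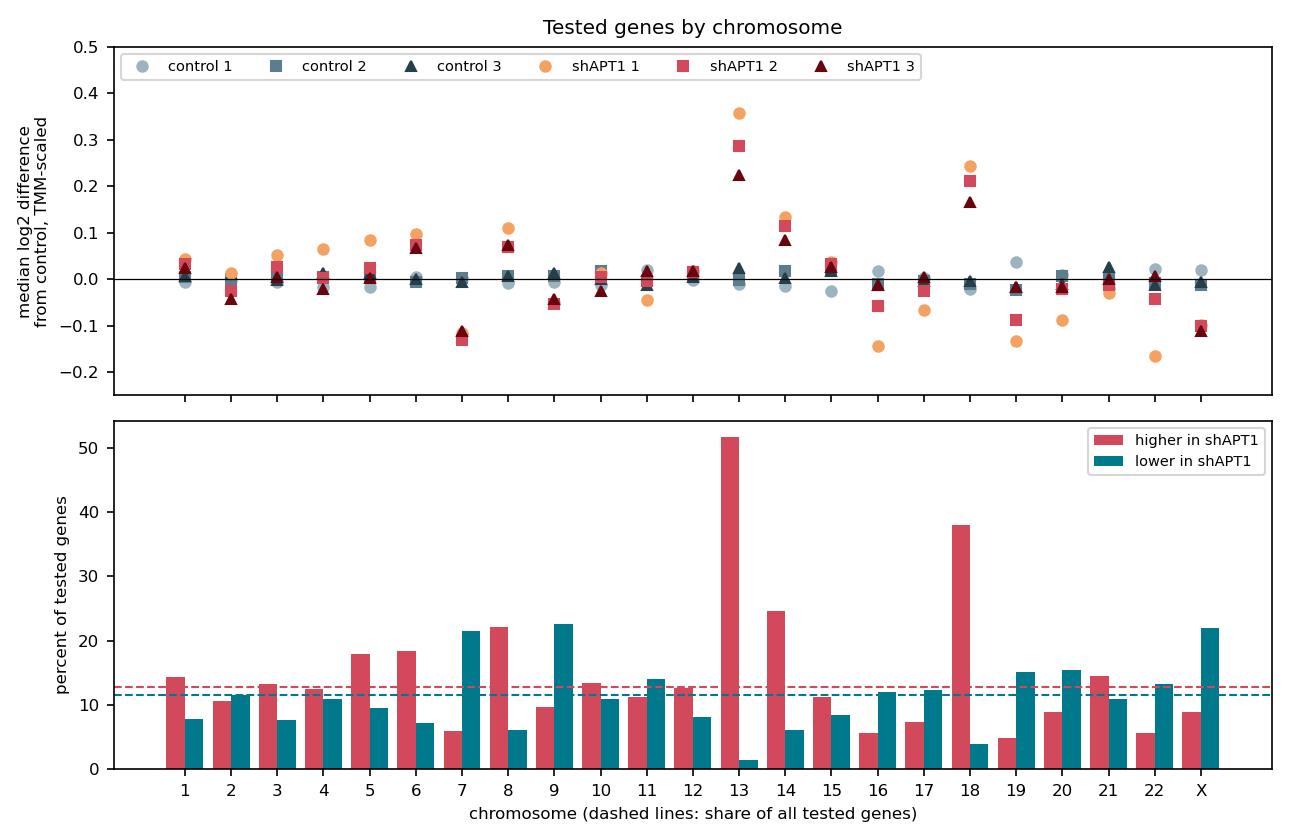
Tested genes by chromosome: above, the median log2 difference of TMM-scaled reads for each shAPT1 library from the control mean and for each control library from the other 2; below, the percent of tested genes called higher or lower in shAPT1, with dashed lines at the shares of all tested genes. Chromosomes 13 and 18 stand out upwards in all 3 shAPT1 libraries, with 51.7% and 38.0% of genes higher, and chromosomes 7, 9 and X have the highest shares of genes lower, 21.6%, 22.6% and 22.0%.

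Replicate 1 of shAPT1 departed from its partners in more genes than any other library. A library was taken to depart in a gene where log2(TPM + 1) differed by at least 1 from the mean of the other 2 libraries of its group and those 2 differed by less than 0.5, at a group mean of at least 1 TPM. This held for 104 of 13750 genes in shAPT1 replicate 1, or 0.756%, with 53 higher and 51 lower, against 33 and 35 genes in replicates 2 and 3 and 37 to 56 genes in the control libraries. Above a mean of 5 TPM the counts were 49 in shAPT1 replicate 1 and 6 to 17 in the other 5 libraries. The counts describe these libraries and carry no test.

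Of the 12 largest upward departures at 5 TPM or more, 8 were members of the list of innate sensing and NF-kappaB genes with cytokines: CXCL1, CXCL2, CXCL3, CXCL8, IL6, IL1A, CSF2 and BIRC3. CXCL1, a neutrophil chemokine gene, stood at 111.3, 155.8 and 143.0 TPM in control and at 143.0, 16.6 and 15 TPM in shAPT1. ZC3H12A, which encodes an RNase that degrades cytokine mRNAs, stood at 20.4, 20.3 and 20.6 TPM beside 9.92, 2.96 and 2.88 TPM (-2.08 ± 0.27, adjusted p = 7.5e-05). BIRC3, an apoptosis inhibitor gene, stood at 62.4, 80.9 and 81.5 TPM beside 118, 47.1 and 48.5 TPM. So replicate 1 lay within the control range for CXCL1, between the groups for ZC3H12A and above every other library for BIRC3. In that list, 0 of 29 rose and 20 fell with all libraries, and 0 rose and 26 fell without replicate 1, beside 13% and 12.1% of all tested genes without it. The list's median against control was -0.46 in replicate 1 and -0.95 and -0.85 in replicates 2 and 3. Type I interferon response genes also lay higher in replicate 1, with a median of 0.43 beside 0.09 and 0.06. For these genes control replicate 1 stood at 0.20 against the other control libraries. Of 36 tested, 8 rose (22.2%) and 0 fell with all libraries, and 6 rose and 1 fell without shAPT1 replicate 1.

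Not every upward departure belonged to genes lowered in the other libraries. OLR1, which encodes a scavenger receptor for oxidised lipoprotein, stood at 0.387, 0.152 and 0.119 TPM in control and at 9.18, 3.77 and 2.75 TPM in shAPT1 (4.85 ± 0.55, adjusted p = 2.6e-05). The collagenase gene MMP1 stood at 24.1, 17.6 and 22.3 TPM beside 62.1, 25.7 and 28.9 TPM (0.77 ± 0.32, adjusted p = 0.10). Both genes were highest in replicate 1, which lay farther from control than its partners did.

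The downward departures formed another set. PHGDH stood at 7.61, 7.77 and 6.86 TPM in control and at 8.06, 18.9 and 22.4 TPM in shAPT1, so its rise rested on replicates 2 and 3, and without replicate 1 the log2 fold change was 1.45 (adjusted p = 7.4e-07). STMN3, a stathmin gene, stood at 22.4, 26.9 and 22.6 TPM beside 5.89, 16 and 17.8 TPM, and without replicate 1 its fold change was -0.64 in place of -0.96. L1CAM, a neural adhesion gene, stood at 17, 24 and 24.2 TPM beside 13.3, 27.5 and 31.1 TPM and was not called in either case. Of the 104 departing genes, 26 lay within 0.5 of the control mean in replicate 1, on the log2(TPM + 1) scale.

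The departure of replicate 1 also ran with base composition. With tested genes split by GC content into 5 groups of equal size, in the group with the lowest GC content the median log2 departure of shAPT1 replicate 1 from its partners was 0.19, and in the group with the highest it was -0.19. For shAPT1 replicate 3 these values were -0.08 and 0.25, and for the other 4 libraries medians in all 5 groups lay between -0.11 and 0.07. The log2 fold changes of shAPT1 against control followed the same axis, with a median of 0.10 in the lowest group and -0.14 in the highest, or 0.04 and -0.07 without replicate 1. With the offset for gene length and GC content, the counts higher and lower were 13 and 3 for matrix genes, 13 and 4 for junction genes, 13 and 2 for contractile genes, 7 and 2 for caveolae, 15 and 6 for TGF-beta and BMP signalling, 16 and 5 for G protein-coupled receptors and 0 and 12 for MHC class II genes.

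Leaving out replicate 1 changed which genes were called more than it changed their number. Of the 3719 called genes, 3199 were called in the same direction without it, 520 were lost and 631 others were gained, 285 higher and 346 lower, and 0 switched direction. Such loss was not particular to replicate 1. Without shAPT1 replicate 2 or 3, 2615 and 3297 of the calls were kept, and without a control library 2527 to 2729. Of MHC class II genes, 12 fell with all libraries and 13 without shAPT1 replicate 1. Among the contrasts that grew, the chemokine gene CXCL8 went from -1.48 (adjusted p = 0.033, a call lost in 9 of 17 alternatives) to -2.88 (adjusted p = 3.0e-11), and IL6 from -0.99 (adjusted p = 0.073) to -1.99 (adjusted p = 5.3e-08).

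**Figure D5:**
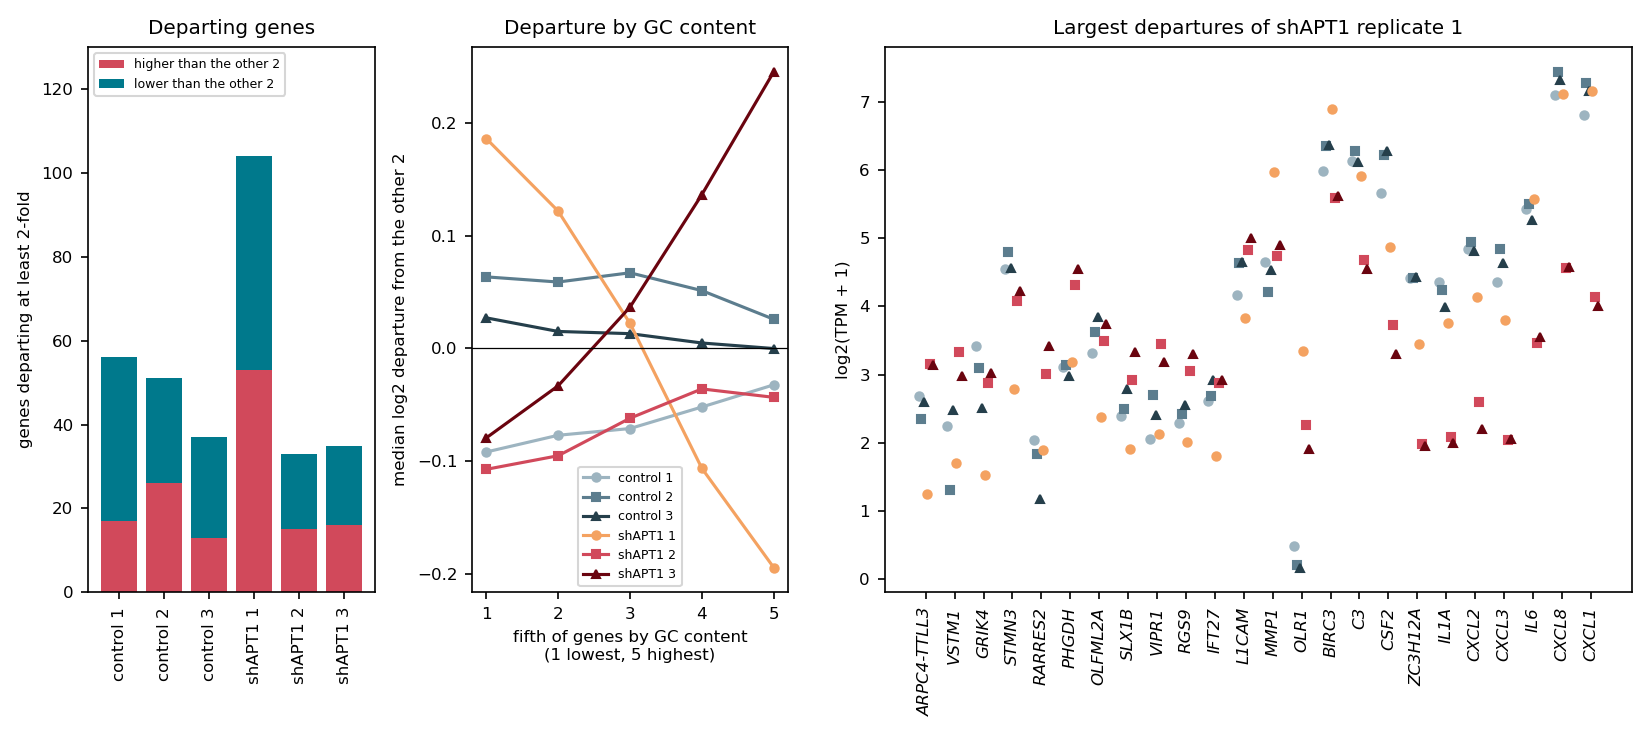
Left, genes in which each library departs at least 2-fold from the other 2 of its group, with 104 in shAPT1 replicate 1 and 33 to 56 elsewhere; middle, median log2 departure of each library by group of GC content (1 to 5), falling from 0.19 to -0.19 in shAPT1 replicate 1; right, log2(TPM + 1) in the 6 libraries for the 24 genes with the largest departures of shAPT1 replicate 1. For CXCL1, CXCL8 and IL6 replicate 1 sits with the control points, and for PHGDH it does so on the low side.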

How the data were processed

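Total RNA of 9 MDA-MB-231 samples was sequenced by the authors. The submitters' processing notes name FastQC, Salmon, DESeq2 and the build GRCh38.p10; versions are not given in the sources used here. The deposited Salmon tables hold estimated counts (expected counts) and TPM, by the authors, for 199324 transcripts of 58219 genes. A deposited table of gene-level signal, whose scaling by the authors is not stated, served as an alternative only. Estimated counts were summed per gene and rounded, and TPM was summed per gene. All 9 libraries entered edgeR 4.0.16 (R 4.3.3, filterByExpr, TMM, quasi-likelihood, contrast shAPT1 minus control, Benjamini-Hochberg at 0.05), checked on simulated data. Intervals cover the spread between libraries. Python 3.11.15 (pandas 2.3.3, numpy 2.4.6) made the tables and matplotlib 3.10.9 the plots. Positions, lengths and GC content came from GENCODE 29 for 15189 of 15233 tested genes, and promoter stretches from RefSeq on GRCh38.p14.

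The comparison, the 73 gene lists and the rules were chosen with earlier results of these data known. Named were the thioesterases; among separate, called protein-coding genes the 12 largest changes each way at 5 and at 50 TPM and the 10 largest gains and losses in TPM; up to 4 members of each list each way; paralogs in opposite directions; the 6 largest noncoding changes; and the 12 largest departures of shAPT1 replicate 1 each way. Other list members, and defining ones not called, were named after their values were seen. A set of 3 against 3 libraries allows an exact permutation p of at least 0.1.

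Alternatives were RLE scaling, library totals, DESeq2 1.42.0, limma-voom (limma 3.58.1), no filter, at least 20 reads in 3 libraries, a transcript length offset, the deposited table, the 6 libraries alone, a replicate block, a test against 1.5-fold, an offset smoothed on gene length and GC content, and each library left out. Counts by chromosome and subtraction of the median of up to 50 neighbouring genes on each side were added after seeing the data. Values of some single genes are not reported here.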

Additional observations from a re-analysis of the deposited data

How the results depend on the processing

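LYPLA1 stayed lower and past the threshold under each alternative, at -1.25 to -1.39, and at -1.33 to -1.25 with each library left out. Counts of higher and lower genes moved by over 1.5 times under 3 alternatives: 1196 and 1111 with the transcript length offset, 1181 and 1112 with the deposited table, and 279 and 105 in the test against 1.5-fold, which asks for larger changes. With 1 library left out, 1427 to 2112 genes were higher and 1189 to 1984 lower. Library totals alone gave 2225 and 1485, and the offset for gene length and GC content 1771 and 2477. The replicate numbers of the labels did not pair the samples, with correlations of -0.05, 0.02 and -0.03 between same-numbered libraries, and a replicate block gave 1939 and 1815. Of 168 called genes named in the text, 151 passed under each of 17 alternatives (the test against 1.5-fold not counted), 17 missed the threshold under 1 or more and 0 reversed; the cause was not tested. The departing genes of shAPT1 replicate 1 numbered 684 at 1.5-fold, 10 at 4-fold and 49 at a mean of 5 TPM. At 4-fold and at least 5 TPM it had 3, and replicates 2 and 3 had 4 each. Depth and 3 libraries a group limit genes under 1 TPM, such as INHBB and HLA-DQA1.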
